A study of Zea mays with 48 samples.

Results

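The maize plastid genes psaB (ZemaCp022), psaA (ZemaCp023) and ycf3 (ZemaCp024) follow each other in the plastid genome and were described here as a group of 3 among the 33309 genes of the expression table, 61 of which were plastid rows. They were taken by their locus tags, as neighbours whose products meet in photosystem I, and their symbols came from a RefSeq gene table of the assembly Zm-B73-REFERENCE-NAM-5.0. Leaf RNA came from the maize inbred W22 and from the mutant bzip60-2, which carries a mutant allele of the gene for bZIP60, a transcription factor that acts when unfolded proteins build up in the endoplasmic reticulum. Both genotypes were grown in chambers at a maximum daily temperature of 31, 33, 35 or 37 °C, with nights 10 °C cooler, and sampled in the middle of the newest fully expanded leaf at stage V4 (20 days after germination) or V5 (27 days). The 16 groups of genotype, stage and temperature held 3 libraries each, 48 in all. All groups shared the chambers' light, soil and humidity, and no other treatment was labelled. Each temperature had a pair of chambers of its own, so an effect of temperature and an effect of the chambers cannot be told apart.

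PsaA and PsaB are the large subunits of photosystem I. They form the heterodimer that holds its special pair of chlorophylls and most of its core antenna pigments. In plants psaA and psaB are transcribed together with rps14, the gene of a ribosomal protein. Ycf3 is not a subunit. It is a thylakoid protein that works as a chaperone in the assembly of photosystem I, a role shown in tobacco and in the alga Chlamydomonas, and its gene in land plants holds introns. Plastid mRNAs mostly lack the long poly(A) tails of nuclear mRNAs, and these libraries were made from RNA bound to oligo(dT), so the values describe the plastid RNA that this step retained. The steady level of a transcript does not tell synthesis from decay, and in whole leaf pieces fewer cells of a type and less RNA per cell cannot be told apart.

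Levels are given as FPKM, fragments per kilobase scaled to the mapped reads of a library, which is a level per length. ycf3 was the most abundant of the 3 transcripts per length in all 48 libraries, with 17.95 to 117 FPKM and a median of 54.8 FPKM. psaA ranged from 9.89 to 20.3 FPKM with a median of 13.9 FPKM, and psaB from 8.80 to 18.7 FPKM with a median of 12.8 FPKM. Over the 16 group means the highest level was 5.57 times the lowest for ycf3, 1.81 times for psaB and 1.69 times for psaA. All 3 members passed the filter on low values, which asked for 3 or more libraries at an FPKM of 1 or above, and were above that level in all 48 libraries. Replicates of a group differed by a median coefficient of variation of 7.49% for ycf3, 6.15% for psaB and 8.44% for psaA.

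Some facts of the libraries bear on these values. Named plastid genes made up 0.110% to 0.247% of all FPKM per library. The summed level of the named plastid genes other than the members ran from a group mean of 894 FPKM in bzip60-2 V5 at 33 °C to 1973 FPKM in W22 V4 at 37 °C, and it was higher at 37 than at 31 °C in all 4 series of genotype and stage. Of the plastid transcripts listed as markers of green tissue, psaA and psaB were present throughout and petA was not analysed here, while rbcL, the large subunit of Rubisco, was listed at 0 in 36 libraries and psbA, the D1 protein of photosystem II, in 39, with highest values of 0.53 and 0.47 FPKM. The nuclear gene Zm00001d033132 divided the libraries into 14 below 10 FPKM and 34 above. The lower set held bzip60-2 V4 at 31 °C and all of W22 V4 except replicate 3 at 37 °C. No group other than W22 V4 at 37 °C held libraries of both sets. A model term for the sets, used below, therefore rests on that replicate against the other replicates of its group. Comparisons of bzip60-2 V4 with its 31 °C group, of the genotypes at V4 above 31 °C and of W22 between stages crossed these sets. So did bzip60-2 between stages at 31 °C and, through replicate 3 alone, W22 V4 at 37 °C against its cooler groups. The median of all genes was higher in bzip60-2 by 0.19 on the log2 scale at V4 and 0.20 at V5, and higher at V5 by 0.29 in W22 and 0.30 in bzip60-2. After division by size factors, which ran from 0.752 to 1.32, these medians were near 0. The depth of the libraries is unknown. The labels do not settle whether a library holds 1 plant or a pool, so p values measure the spread between these samples.

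ycf3, the assembly factor, fell with temperature in both genotypes and at both stages. Its group means stood in strict order of temperature in all 4 series, and at 37 °C they were 0.336 to 0.433 of those at 31 °C. How many of all genes show such an order, or libraries without overlap, was not counted here or below. A test over all temperatures, given below, called 66.0% to 81.0% of all genes per series. Order and separation are thus not read as particular to these genes. In W22 at V4 the libraries held 49.6, 55.2 and 58.5 (31 °C), 43.4, 38.9 and 50.0 (33 °C), 38.1, 36.2 and 36.8 (35 °C), and 18.4, 17.95 and 25.98 (37 °C) (FPKM, replicates 1 to 3). All libraries at 35 and 37 °C lay below all at 31 °C, those at 33 and 31 °C overlapped, and replicate 3 at 37 °C stood above the other two of its group. In W22 at V5 ycf3 was at 81.5, 85.95 and 82.2 (31 °C), 85.9, 74.7 and 72.7 (33 °C), 47.8, 56.2 and 54.4 (35 °C), and 33.9, 28.4 and 29.3 (37 °C) (FPKM). The 31 and 33 °C groups overlapped there, and the 2 warmer groups stood apart from them and from each other. In bzip60-2 at V4 the values were 80.3, 71.3 and 74.3 (31 °C), 72.2, 73.7 and 72.5 (33 °C), 50.2, 45.8 and 44.2 (35 °C), and 32.5, 29.9 and 35.4 (37 °C) (FPKM). Again 31 and 33 °C overlapped and the warmer groups lay in order below. In bzip60-2 at V5 they were 113, 117 and 117 (31 °C), 95.4, 106 and 108 (33 °C), 68.9, 67.4 and 69.5 (35 °C), and 42.7, 33.1 and 40.7 (37 °C) (FPKM). This was the only series in which the 33 °C libraries all lay below those at 31 °C.

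psaB, which encodes a core subunit, fell less. In W22 at V4 its libraries held 17.8, 18.7 and 15.99 (31 °C), 16.3, 17.2 and 16.5 (33 °C), 15.9, 14.2 and 15.7 (35 °C), and 12.9, 9.57 and 13.1 (37 °C) (FPKM). At V5 W22 had 15.6, 12.9 and 16.6 (31 °C), 14.5, 11.3 and 10.9 (33 °C), 10.7, 11.3 and 10.2 (35 °C), and 10.1, 12.4 and 10.1 (37 °C) (FPKM). In both series the 35 and 37 °C libraries lay below all those at 31 °C, whereas 33 and 31 °C overlapped. bzip60-2 at V4 had 14.2, 15.5 and 16.1 (31 °C), 14.7, 14.2 and 14.8 (33 °C), 12.1, 13.2 and 12.4 (35 °C), and 9.83, 9.32 and 9.79 (37 °C) (FPKM). bzip60-2 at V5 had 14.9, 16.2 and 12.7 (31 °C), 11.6, 11.5 and 11.2 (33 °C), 11.8, 8.80 and 8.91 (35 °C), and 9.42, 9.92 and 9.67 (37 °C) (FPKM). The same separation at 35 and 37 °C was seen in the mutant, and at V5 its 33 °C libraries also lay below those at 31 °C. The lowest group mean of a series was at 37 °C except in W22 V5, where 35 °C was lowest at 10.7 FPKM against 10.9 FPKM at 37 °C, with overlapping libraries.

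psaA, which encodes the partner subunit, had no common order over temperature. In W22 at V4 its libraries held 18.9, 18.3 and 16.1 (31 °C), 12.96, 14.1 and 15.4 (33 °C), 13.8, 16.01 and 13.99 (35 °C), and 12.9, 9.89 and 18.7 (37 °C) (FPKM). The 37 °C group spread from 9.89 to 18.7 FPKM, replicate 3 being as high as the 31 °C libraries, so those groups overlapped, while all libraries at 33 and 35 °C lay just below those at 31 °C. In W22 at V5 psaA was at 17.6, 18.7 and 20.3 (31 °C), 16.2, 12.4 and 12.4 (33 °C), 12.8, 11.8 and 13.1 (35 °C), and 12.3, 17.4 and 13.3 (37 °C) (FPKM). All libraries of the 3 warmer groups lay below those at 31 °C. In bzip60-2 at V4 it was at 15.3, 15.2 and 13.9 (31 °C), 16.1, 15.4 and 15.8 (33 °C), 17.8, 15.6 and 14.4 (35 °C), and 11.2, 12.1 and 13.7 (37 °C) (FPKM). Here the 33 °C libraries were all slightly above those at 31 °C and the 37 °C libraries all below, with 35 °C overlapping. In bzip60-2 at V5 it was at 18.3, 17.9 and 19.1 (31 °C), 13.1, 13.6 and 13.4 (33 °C), 12.1, 9.98 and 11.4 (35 °C), and 11.9, 10.1 and 11.6 (37 °C) (FPKM). Every library of the 3 warmer groups lay below the 31 °C group, and the lowest mean was at 35 °C.

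**Figure D1:**
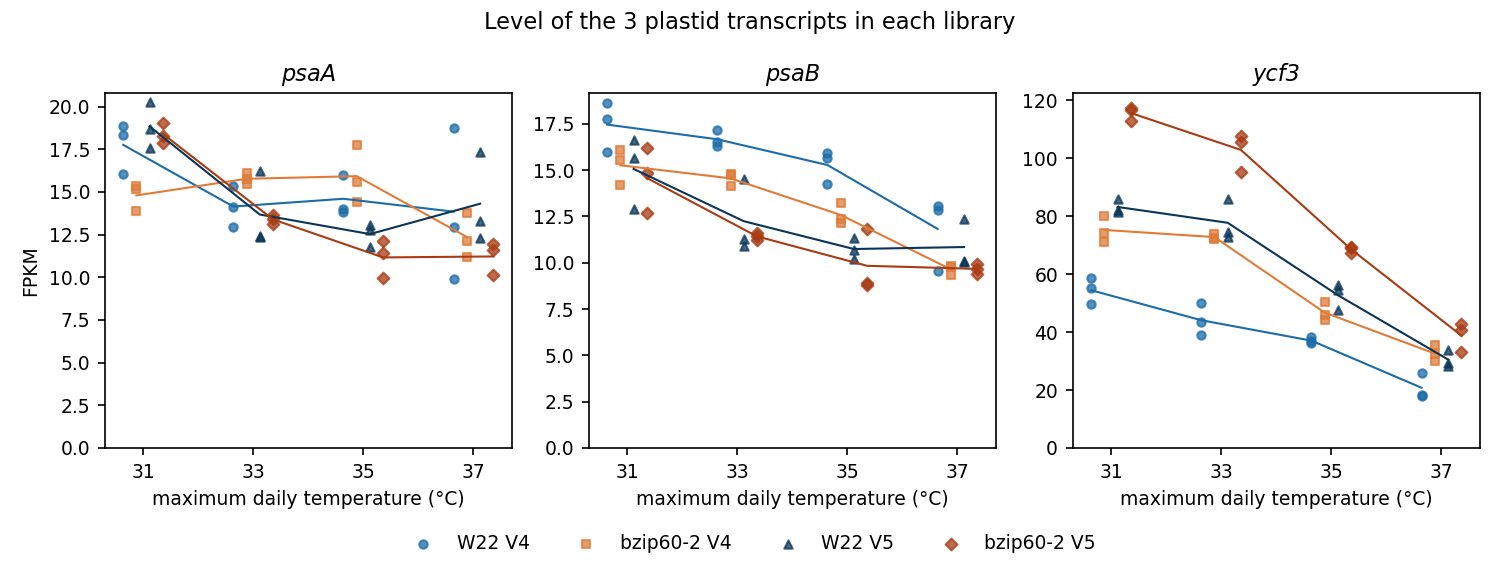
FPKM (linear axis from 0) of psaA, psaB and ycf3 in each of the 48 libraries (points) against maximum daily temperature (°C), with lines through the group means of the 4 series of genotype and stage. ycf3 falls from 31 to 37 °C in each series, from 116 to 38.8 FPKM in bzip60-2 V5 for example, while psaA and psaB stay between 8.80 and 20.3 FPKM.

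Ordered from the highest group to the lowest, ycf3 ran from bzip60-2 V5 at 31 °C (116 ± 2.37 FPKM, SD, n = 3) and 33 °C (103 ± 6.57 FPKM, n = 3) down to W22 V4 at 37 °C (20.8 ± 4.51 FPKM, n = 3). Of the 15 neighbours in that order, 9 had overlapping libraries. For psaB and psaA 13 of 15 neighbours overlapped. psaB was highest in W22 V4 at 31 °C (17.5 FPKM) and lowest in bzip60-2 V4 at 37 °C (9.65 FPKM). psaA was highest in W22 V5 at 31 °C (18.8 FPKM) and lowest in bzip60-2 V5 at 35 °C (11.2 FPKM).

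Differences were tested on log2(FPKM + 1) with limma across the 22794 genes past the filter, with Benjamini-Hochberg adjustment over all of them and a threshold of 0.05. At 37 against 31 °C all 3 members were lower in W22 V4, where 19.7% of all genes tested were called lower, as well as in W22 V5 (22.3% of all genes) and at V5 in bzip60-2 (32.8%). In bzip60-2 V4, whose 31 °C group lay in the other library set, ycf3 and psaB were called lower (21.7% of all genes) and psaA was not as deposited. ycf3 fell by 1.37 on the log2 scale in W22 V4 (SE 0.0982, limma adjusted p = 1.33e-14), by 1.42 in W22 V5 (adjusted p = 4.19e-15), by 1.18 in bzip60-2 V4 (adjusted p = 4.95e-13) and by 1.56 in bzip60-2 V5 (adjusted p = 1.39e-16). psaB fell by 0.53, 0.44, 0.61 and 0.54 in the same order of series (SE 0.104, limma adjusted p = 4.58e-05, 0.000618, 4.54e-06 and 3.01e-05). These ycf3 and psaB calls held without any 1 of the 6 libraries of each comparison. psaA fell by 0.67 in bzip60-2 V5 (SE 0.127, limma adjusted p = 2.59e-05), and its log2 change in bzip60-2 V4 was -0.24 (adjusted p = 0.103). With size factors that change was called, at -0.35 (limma adjusted p = 0.018). It was also called, at -0.85, when each library was set against the summed level of its other named plastid genes (limma adjusted p = 3.74e-10). A term for the library sets gave -0.92, a value that rests on replicate 3 of W22 V4 at 37 °C. Against the other plastid genes the falls from 31 to 37 °C were larger in all 4 series for each member, at -1.74 to -2.23 for ycf3, -0.89 to -1.20 for psaB and -0.74 to -1.31 for psaA. psaA was called by a narrow margin in W22, at -0.38 in V4 (limma adjusted p = 0.0138) and -0.39 in V5 (adjusted p = 0.0125). Leaving out replicate 1 of the 31 °C group (-0.33) or replicate 2 of the 37 °C group (-0.18) ended the W22 V4 call, and leaving out replicate 3 of the latter, the library that stood apart from its group, gave -0.60. Without that library psaB was at -0.61 and ycf3 at -1.53. The W22 V5 call ended when replicate 3 of the 31 °C group (-0.34) or replicate 1 or 3 of the 37 °C group (-0.29 and -0.34) was left out.

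The smaller steps differed between the genes. At 35 °C ycf3 was called lower than at 31 °C in all 4 series, by 0.54 to 0.75 on the log2 scale (limma, highest adjusted p = 1.8e-05). In W22 V4 it was the only member called at 35 °C as deposited, where 15.6% of all genes were called lower. psaB and psaA were called there too with size factors (-0.29 and -0.38) and against the other plastid genes (-0.45 and -0.54). In bzip60-2 V4 psaB was also called (-0.26, limma adjusted p = 0.039; 22.8% of all genes lower), and that call was lost without replicate 2 or 3 at 31 °C (-0.25 and -0.22) or replicate 1 or 3 at 35 °C (-0.24 and -0.25), and with the term for library sets (-0.48, limma adjusted p = 0.063). At V5 all 3 members were called lower at 35 °C, in W22 (54.0% of all genes called in either direction) and in bzip60-2 (22.8% lower), with psaA at -0.55 and -0.68. The W22 share counts both directions, so it is not the matching share for these lower calls.

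At 33 °C the order of the genes was another one at V5. There psaA and psaB were called lower than at 31 °C as deposited and ycf3 was not, and these calls depended on the scaling. In W22 V5, where 12.0% of all genes were called lower, psaA was at -0.44 (limma adjusted p = 0.00268), psaB at -0.28 (adjusted p = 0.0171) and ycf3 at -0.10 (adjusted p = 0.381). In bzip60-2 V5 (18.1% of all genes lower) psaA was at -0.43, psaB at -0.32 and ycf3 at -0.17 (limma adjusted p = 0.00597, 0.0121 and 0.177). The psaB call in W22 V5 was lost without replicate 1 or 3 at 31 °C (-0.25 and -0.21) or replicate 2 or 3 at 33 °C (-0.23 and -0.21), and that in bzip60-2 V5 without replicate 2 at 31 °C (-0.25). The difference between the genes at this step was not tested. The median of all genes in W22 V5 stood 0.30 higher at 33 than at 31 °C. With size factors all 3 members were called lower there, psaA at -0.76, psaB at -0.60 and ycf3 at -0.44 (limma adjusted p = 2.52e-06, 5.22e-06 and 0.000224). Against the other plastid genes the W22 V5 calls of psaA (-0.12, limma adjusted p = 0.241) and psaB (0.04, adjusted p = 0.773) were lost, and ycf3 was called higher (0.24, adjusted p = 0.0178). In bzip60-2 V5 the same scaling ended the psaB call (-0.11, limma adjusted p = 0.416) and left that of psaA at -0.22 (adjusted p = 0.0477). At V4 no member was called at 33 °C in bzip60-2 as deposited (32.1% of all genes lower). Against the other plastid genes all 3 were called lower there, psaA at -0.28, psaB at -0.43 and ycf3 at -0.44. The term for library sets, which rests on replicate 3 of W22 V4 at 37 °C, gave -0.59 for psaA and -0.54 for ycf3. In W22 V4, where 17.1% of all genes were called lower, ycf3 alone was called as deposited (-0.30, limma adjusted p = 0.0195), and psaA was also called against the other plastid genes (-0.29) and with the term for library sets (-0.31). The ycf3 call was lost with size factors (-0.22), with only the 2 groups in the fit (-0.30, limma adjusted p = 0.106), without replicate 2 or 3 at 31 °C (-0.29 and -0.25) and without replicate 1 or 2 at 33 °C (-0.29 and -0.22).

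**Figure D2:**
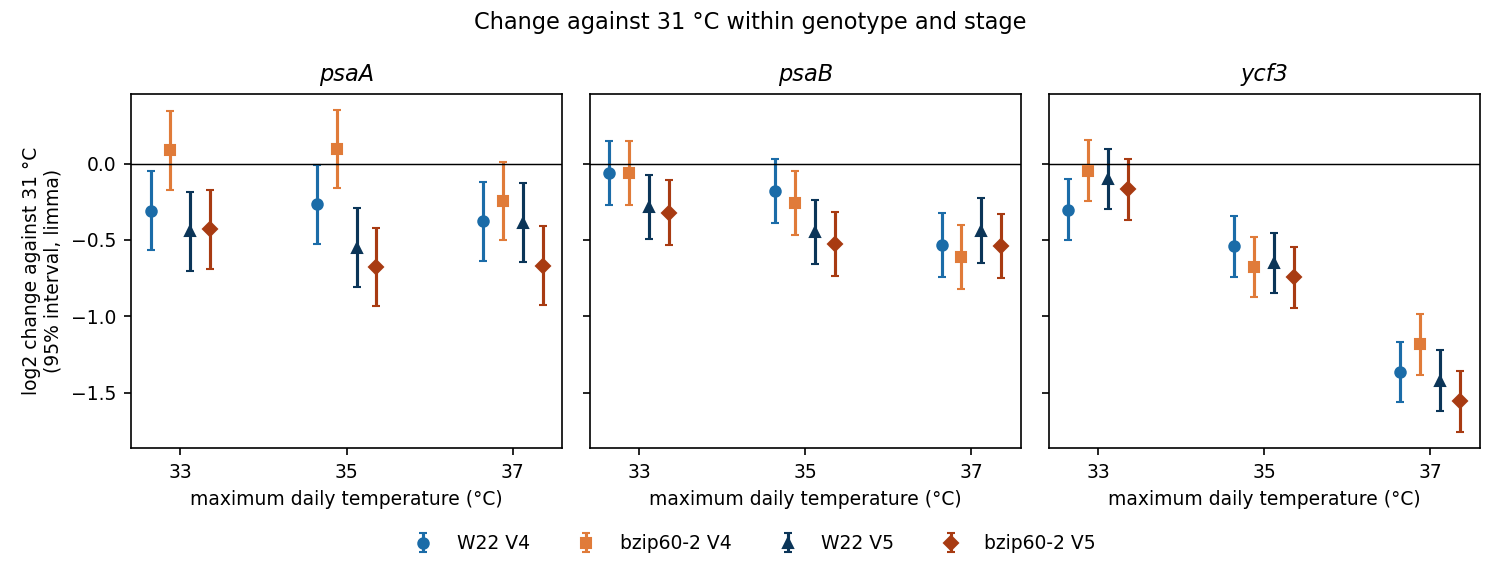
Fitted log2 change of psaA, psaB and ycf3 against 31 °C (points, with 95% intervals from limma) at 33, 35 and 37 °C within each of the 4 series. ycf3 lies between -1.18 and -1.56 at 37 °C, psaB between -0.44 and -0.61 and psaA between -0.24 and -0.67.

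Over all 4 temperatures of a series, limma's moderated F test called ycf3 and psaB in every series and psaA in 3 of 4. The share of all genes called by that test was 66.0% in W22 V4, 81.0% in W22 V5, 72.2% in bzip60-2 V4 and 72.8% in bzip60-2 V5. The psaA exception was bzip60-2 V4 (adjusted p = 0.0524), called under both other scalings, and its call in W22 V4 was close to the threshold (adjusted p = 0.044). When the 16 group means were the units, with a level for each series and a common straight line, the fitted log2 change from 31 to 37 °C was -1.39 for ycf3 (SE 0.128, limma adjusted p = 4.3e-05), -0.53 for psaB (SE 0.0882, adjusted p = 0.00158) and -0.40 for psaA (SE 0.114, adjusted p = 0.0288). That fit called 7.20% of all genes lower. It takes the 16 group means as separate units, though the groups at a temperature shared its pair of chambers. Its p values therefore do not measure the spread between chambers. The psaA call was lost without 1 of 5 groups: bzip60-2 V4 at 37 °C (-0.39), bzip60-2 V5 at 31 °C (-0.31) or 37 °C (-0.39), W22 V4 at 31 °C (-0.39) and W22 V5 at 31 °C (-0.35).

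A ratio of FPKM values within a library does not depend on how libraries are scaled against each other. Per length, ycf3 exceeded psaA by a mean over the 4 series of 4.73, 5.29, 3.98 and 2.46 times in the order of 31, 33, 35 and 37 °C. In W22 V4 the ycf3/psaA ratio was 3.10 ± 0.514, 3.12 ± 0.317, 2.55 ± 0.261 and 1.54 ± 0.237 at the 4 temperatures (SD, n = 3 each), and in W22 V5 it was 4.43 ± 0.321, 5.73 ± 0.386, 4.23 ± 0.526 and 2.2 ± 0.564. In bzip60-2 V4 it was 5.09 ± 0.348, 4.62 ± 0.146, 2.94 ± 0.121 and 2.65 ± 0.223, and in bzip60-2 V5 it was 6.29 ± 0.206, 7.68 ± 0.377, 6.18 ± 0.536 and 3.45 ± 0.161. At V5 the ratio was thus highest at 33 °C in both genotypes, with no overlap between its libraries and those at 31 °C. At V4 it was flat in W22 and slightly lower in bzip60-2 between 31 and 33 °C. From 31 to 37 °C it fell in all 4 series.

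The ycf3/psaB ratio was also lower at 37 than at 31 °C in all 4 series. Its mean over the 4 series was 5.43, 5.77, 4.54 and 3.01 in the order of rising temperature. Group means were lowest throughout in W22 V4, where they ran from 3.14 ± 0.459 at 31 °C to 1.76 ± 0.296 at 37 °C (SD, n = 3). They were highest in bzip60-2 V5, from 8.02 ± 1.09 at 31 °C and 9.01 ± 0.707 at 33 °C to 4.03 ± 0.616 at 37 °C. W22 V5 went from 5.60 ± 0.917 to 2.85 ± 0.542, and bzip60-2 V4 from 4.96 ± 0.605 to 3.38 ± 0.212, between 31 and 37 °C.

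Averaged over the 4 series, the psaB/psaA ratio was below 1 at each temperature. Its mean over the 4 series was 0.904, 0.964, 0.898 and 0.826 in the same order, and group means ran from 0.764 in W22 V5 at 37 °C to 1.18 in W22 V4 at 33 °C. In bzip60-2 V4 it went from 1.04 ± 0.115 at 31 °C to 0.786 ± 0.0837 at 37 °C, and in W22 V4 from 0.984 ± 0.0396 to 0.887 ± 0.164 (SD, n = 3). W22 V5 had 0.801 ± 0.0997 and 0.764 ± 0.0528 at those temperatures, and bzip60-2 V5 went the other way, from 0.795 ± 0.122 to 0.868 ± 0.0994.

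**Figure D3:**
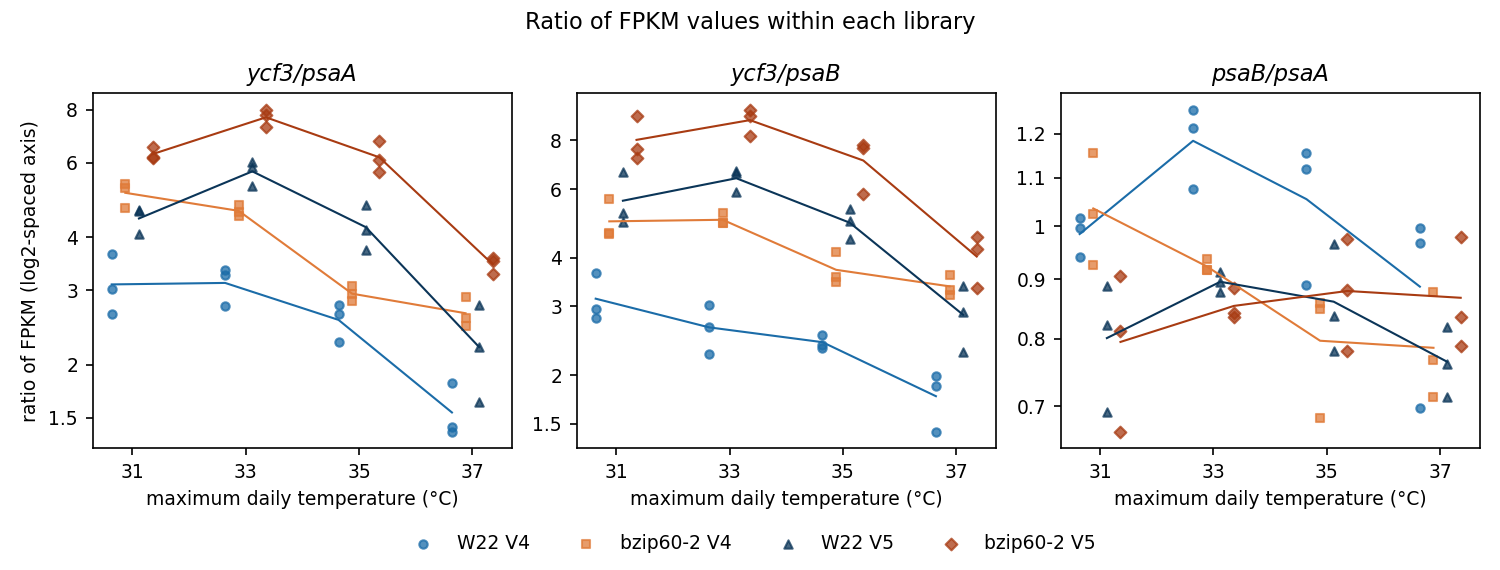
Ratio of FPKM values within each library (points, log2-spaced axis) for ycf3/psaA, ycf3/psaB and psaB/psaA against maximum daily temperature (°C), with lines through the means of the 4 series. Both ycf3 ratios fall towards 37 °C and lie higher in bzip60-2 than in W22 at the same stage and temperature, whereas psaB/psaA ranges from 0.665 to 1.26 in single libraries.

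The slopes of the 3 ratios over temperature were tested by an exact permutation test, two-sided, in which temperatures were exchanged within each series over 331776 arrangements, with Benjamini-Hochberg adjustment over the 3 ratios. The smallest p this test can give is 6.03e-06. It exchanges temperatures in each of the 4 series separately, though the series at a temperature shared its pair of chambers. Its p values therefore do not measure the spread between chambers and can be too small. The log2 ratio ycf3/psaA changed by -0.99 from 31 to 37 °C, lower in 4 of 4 series (exact p = 0.00082, adjusted p = 0.00123). ycf3/psaB changed by -0.85, lower in 4 of 4 series (exact p = 0.000253, adjusted p = 0.00076). For psaB/psaA the change was -0.14, lower in 3 of 4 series (exact p = 0.149, adjusted p = 0.149). Per series the change between 31 and 37 °C ran from -1.04 to -0.87 for ycf3/psaA and from -0.997 to -0.55 for ycf3/psaB, the latter range ending with bzip60-2 V4.

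Between the genotypes ycf3 was higher in bzip60-2 at each of the 8 pairs of stage and temperature, and the libraries of the genotypes overlapped only at V5 and 37 °C. How many of all genes were separated in this way was not counted. The median of all genes was also higher in bzip60-2 at each pair, by 0.08 (V5 at 33 °C) to 0.34 (V5 at 31 °C) on the log2 scale. The mutant's mean was 1.26 to 1.65 times that of W22 at V4 and 1.27 to 1.39 times at V5. limma called ycf3 higher at all 8 pairs, where the share of all genes called higher was 42.6%, 35.2%, 34.5% and 47.3% at V4 (31, 33, 35 and 37 °C) and 57.5%, 20.7%, 36.5% and 44.1% at V5. Averaged over temperatures the log2 difference was 0.54 at V4 (SE 0.0491, limma adjusted p = 3.21e-12) and 0.40 at V5 (SE 0.0491, adjusted p = 5.86e-09). Of all genes, 58.4% and 62.4% were called higher in those comparisons. Over the 8 pairs of group means it was 0.47 (SE 0.0595, limma adjusted p = 0.000387; 43.6% of all genes called higher). Division by size factors lowered these to 0.29, 0.15 and 0.22 (limma adjusted p = 3.34e-06, 0.00953 and 0.0202), and ended the call at 5 of the 8 single pairs: V4 at 31 and 35 °C and V5 at 31, 35 and 37 °C. A term for the library sets, which rests on replicate 3 of W22 V4 at 37 °C, gave a V4 difference of 0.21. At V4 and 33 °C, the largest single difference as deposited (0.72), it was then 0.22, at 35 °C it was -0.17, and at 37 °C it was 0.31. Because they move with that library, these values are not read as a correction for the sets. Against the other plastid genes the V5 difference was larger, at 0.67. At V4 and 31 °C, where both genotypes lay in the lower set, the difference was 0.46 as deposited (limma adjusted p = 0.000165). With size factors it was 0.18 there (adjusted p = 0.162). The V5 groups were all in the upper set. The cause of the difference was not tested.

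psaB lay lower in bzip60-2 at all 8 pairs by its group means, at 0.815 to 0.967 of the W22 level, with overlapping libraries at 5 pairs. The log2 difference averaged over temperatures was -0.22 at V4 (limma adjusted p = 0.000278; 12.2% of all genes called lower) and -0.10 at V5 (adjusted p = 0.0819; 11.5% lower). Of the single pairs, psaB was called lower at V4 with 35 °C (-0.26, limma adjusted p = 0.0365; 13.1% of all genes lower) and 37 °C (-0.26, adjusted p = 0.0321; 11.3% lower). Neither call held when single libraries were left out: the first ended without replicate 1 or 3 of either genotype (-0.25 to -0.23), and the second without any 1 replicate of bzip60-2 (-0.27 to -0.24) or replicate 1 or 3 of W22 (-0.20 and -0.19). The first also ended with the term for library sets (-0.48, limma adjusted p = 0.0609) and the second against the other plastid genes (-0.23, adjusted p = 0.0582). Over the 8 pairs of group means psaB was called lower (-0.16, limma adjusted p = 0.0274; 4.78% of all genes lower). That call was lost without any 1 of the 5 pairs V4 at 31 °C (-0.16), 33 °C (-0.16), 35 °C (-0.15) or 37 °C (-0.15) and V5 at 37 °C (-0.16). The scalings moved psaB in opposite ways. With size factors it differed by -0.39 over the 8 pairs (limma adjusted p = 0.000735), by -0.46 at V4 and by -0.33 at V5. Set against the other named plastid genes, it differed by -0.01 over the 8 pairs (limma adjusted p = 0.933) and by -0.18 at V4, and at V5 it was called higher (0.16, adjusted p = 0.00704).

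psaA was lower in bzip60-2 at 6 of the 8 pairs and higher at V4 with 33 and 35 °C. Among single pairs it was called lower at V5 with 37 °C (-0.31, limma adjusted p = 0.0363; 9.06% of all genes lower), a call lost without replicate 2 or 3 of bzip60-2 (-0.25 and -0.34) or replicate 2 of W22 (-0.18). Its averaged log2 differences of -0.02 at V4 (limma adjusted p = 0.758) and -0.13 at V5 (adjusted p = 0.0648) were not called, with 95% intervals from -0.15 to 0.11 and from -0.26 to -0.0007. With size factors both were called lower, at -0.26 and -0.36 (limma adjusted p = 0.000426 and 6.37e-06). The term for library sets, which rests on replicate 3 of W22 V4 at 37 °C, gave -0.48 and -0.13. Set against the other plastid genes they were 0.02 and 0.13, the latter called higher (limma adjusted p = 0.0105).

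**Figure D4:**
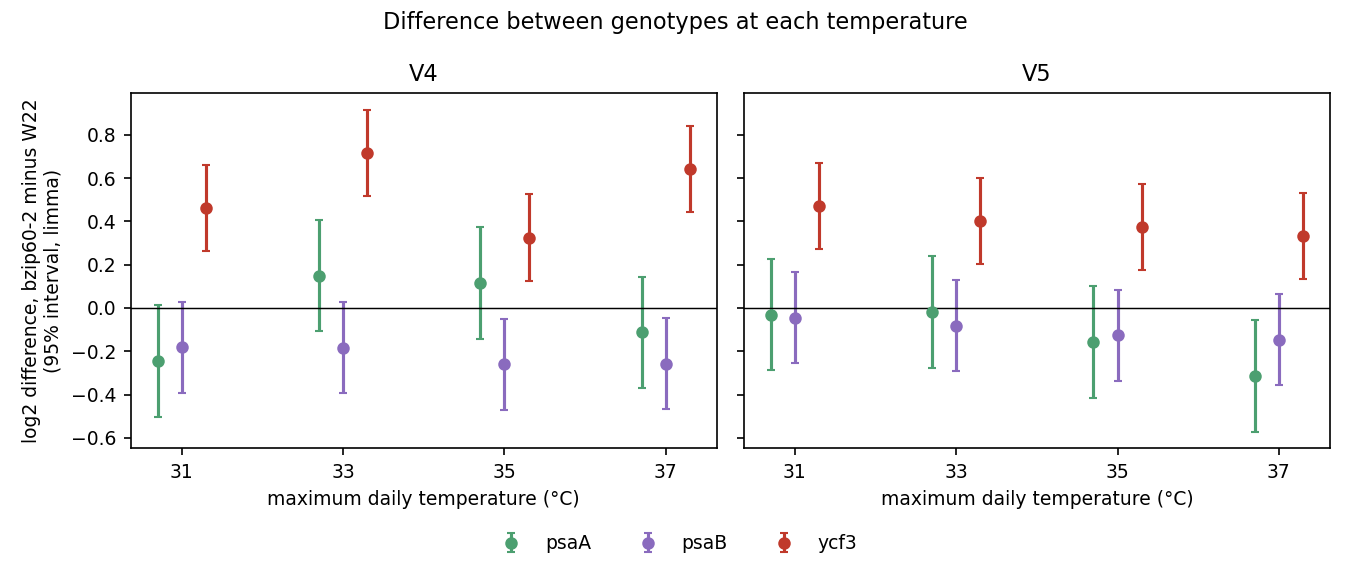
Fitted log2 difference between bzip60-2 and W22 (points, with 95% intervals from limma) for psaA, psaB and ycf3 at each maximum daily temperature (°C), V4 on the left and V5 on the right. ycf3 lies above 0 at all 8 pairs, from 0.33 to 0.72, and psaB below 0, from -0.26 to -0.04.

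The ratios, free of library scaling, gave the genotype comparison again. ycf3/psaA was higher in bzip60-2 at 8 of 8 pairs, by 0.21 to 0.79 on the log2 scale with a mean of 0.56, and ycf3/psaB at 8 of 8 pairs, by 0.49 to 0.95 with a mean of 0.65. In the exact permutation test over 256 sign changes, two-sided, each had p = 0.0078125, the smallest the test can give (adjusted p = 0.0117 over the 3 ratios). psaB/psaA differed by -0.09 with 5 of 8 pairs lower (exact p = 0.289). The difference between genotypes in the change from 31 to 37 °C was not called by limma for any member at V4 (27.7% of all genes called) or V5 (34.2%). For ycf3 it was 0.18 at V4 (95% interval from -0.10 to 0.46, limma adjusted p = 0.369) and -0.14 at V5 (from -0.42 to 0.14, adjusted p = 0.487). Without replicate 3 of W22 V4 at 37 °C the V4 value was 0.35 and was called (limma adjusted p = 0.0328).

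Between stages ycf3 was higher at V5 at all 8 pairs of genotype and temperature, with libraries overlapping at 1 of them, bzip60-2 at 37 °C. How many of all genes were separated between stages was not counted either. The log2 difference averaged over temperatures was 0.61 in W22 (limma adjusted p = 3.7e-14; 65.7% of all genes called higher) and 0.47 in bzip60-2 (adjusted p = 4.17e-11; 67.0% higher). With size factors it was 0.27 and 0.13 (limma adjusted p = 6.52e-06 and 0.0167). The term for library sets, which rests on replicate 3 of W22 V4 at 37 °C, gave 0.16 in W22. At 31 °C the bzip60-2 stages also lay in different sets. Against the other plastid genes the bzip60-2 value was 0.97. psaB was lower at V5, with log2 differences of -0.30 in W22 (limma adjusted p = 1.99e-06; 15.8% of all genes lower) and -0.18 in bzip60-2 (adjusted p = 0.00178; 15.2% lower). With size factors psaB was at -0.63 and -0.50 (limma adjusted p = 8.05e-14 and 5.68e-11). Set against the other plastid genes, it was at -0.05 in W22 and 0.29 in bzip60-2, the latter called higher. psaA was at -0.03 and -0.13 (limma adjusted p = 0.72 and 0.0552). With size factors psaA was called lower at V5 in both genotypes, at -0.36 and -0.45, and against the other plastid genes higher, at 0.23 and 0.34.

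The neighbours of the 3 genes did not all move with them. In the order of locus tags, rps14, cotranscribed with psaB and psaA, comes before psaB and ranged from 6.60 to 26.1 FPKM with a median of 13.7 FPKM, close to both. At 37 against 31 °C rps14 was not called in any series, with log2 changes of -0.03 in W22 V4, -0.34 in W22 V5, -0.37 in bzip60-2 V4 and -0.34 in bzip60-2 V5 (limma adjusted p = 0.952, 0.34, 0.256 and 0.311; SE 0.274). The SE of this change was smaller for psaB (0.104) and psaA (0.127), so these missing calls do not separate rps14 from them. On the other side of ycf3, rps4, a ribosomal protein gene with 38.6 to 97.1 FPKM, was called higher at 37 °C in all 4 series, by 0.38 to 0.74. Farther out, atpA was listed at 0 in 47 libraries and ndhJ in 32.

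Of the other plastid genes of photosystem I, psaC, which encodes the subunit that holds the terminal iron-sulfur clusters, was listed at 0 in 38 libraries with a highest value of 1.31 FPKM and did not pass the filter. psaI, psaJ and ycf4 were not analysed here. Of 48 named plastid genes 29 passed the filter, among them 26 besides the members. At 37 against 31 °C, of these 26, 12 were called higher and 6 lower in W22 V4 (26.6% of all genes higher, 19.7% lower) and 10 and 1 in W22 V5 (21.9% and 22.3%). In bzip60-2 the counts were 13 and 5 at V4 (33.5% and 21.7%) and 13 and 2 at V5 (20.8% and 32.8%). Their median log2 changes were 0.16, 0.19, 0.40 and 0.30, against medians of all genes of 0.05, 0.01, 0.08 and -0.08. In the straight line over group means 9 of the 26 were called higher (8.60% of all genes) and 2 lower (7.20% of all genes), with a median of 0.35. The count called lower is near the share of all genes and is not read as a result about plastid genes. Those 2 were atpH (-0.61) and atpI (-0.45), both of which encode subunits of ATP synthase. Of the 5 ATP synthase genes tested, the other 3 were called higher in that line, among them atpF (0.99).

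By function, the single photosystem II gene tested, psbC, encoding an antenna protein, rose in all 4 series by 0.40 to 0.94 on the log2 scale. rpoC1, a subunit of the plastid RNA polymerase, rose in all 4 by 0.46 to 0.86. The counts that follow stand beside 20.8% to 33.5% of all genes called higher and 19.7% to 32.8% called lower at 37 °C, and with so few genes they are not read as differing from those shares. Of 8 NDH complex genes tested, 2 to 4 were called higher per series and at most 1 lower. Of 5 ATP synthase genes, 2 or 3 were called higher and 1 or 2 lower. Neither cytochrome b6f gene in the table nor rbcL passed the filter. ycf3 belongs to the 10 plastid genes listed as holding introns, of which 6 passed the filter. At 37 against 31 °C 2 of the 6 were called higher and 4 lower in W22 V4, 1 and 1 in W22 V5, 3 and 2 in bzip60-2 V4, and 3 and 1 in bzip60-2 V5, ycf3 being among the lower ones each time.

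The plastid genes with the largest called changes at 37 °C other than the members included matK, an intron maturase gene, at 1.42 and 1.55 in W22 (V4 and V5) and 1.70 in bzip60-2 at V5. In W22 V4 psbC (0.94) followed, and in W22 V5 atpF (0.94), a subunit gene of ATP synthase. Others with large called changes were rpl16, listed at 0 in 1 library, and clpP, listed at 0 in 26. A 0 can be a failed estimate, so their values stand here in place of fold changes. rpl16, a ribosomal protein gene, was at 9.52, 9.36 and 8.30 FPKM at 31 °C (replicates 1 to 3) and 25.8, 36.6 and 48.2 FPKM at 37 °C in bzip60-2 V4. In bzip60-2 V5 it was at 11.7, 4.91 and 8.72 FPKM and at 26.5, 23.1 and 36.5 FPKM, with no overlap between temperatures at either stage. In W22 V4 rpl16 was called lower, at 30.4, 31.5 and 22.9 FPKM at 31 °C and 0, 4.11 and 26.9 FPKM at 37 °C, where replicate 3 overlapped the 31 °C group. In W22 V5 the largest fall was that of atpI (-0.50). In bzip60-2 atpH at V4 (-0.84) and atpI at V5 (-0.39) came after clpP, which encodes a protease subunit and was at 5.01, 17.1 and 6.60 FPKM at V4 and 17.72, 18.45 and 19.95 FPKM at V5 at 31 °C. At 37 °C clpP was listed at 0 in 5 of those 6 libraries and at 0.54 FPKM in the other.

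Between genotypes, 7 of the 26 other named plastid genes were called lower in bzip60-2 by limma over the 8 pairs of group means (4.78% of all genes), with a median log2 difference of -0.14. When temperatures were averaged, V4 had 10 of them called lower and 4 called higher (median -0.11), where 12.2% and 58.4% of all genes were called, and V5 had 13 called lower and 1 called higher (median -0.21), beside 11.5% and 62.4%. The counts called lower were 20 at V4 and 21 at V5 with size factors. With libraries scaled by the summed level of these plastid genes they were 7 and 3, with 5 called higher at each stage. The term for library sets gave 7 lower at V4 and ended the 4 higher calls.

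**Figure D5:**
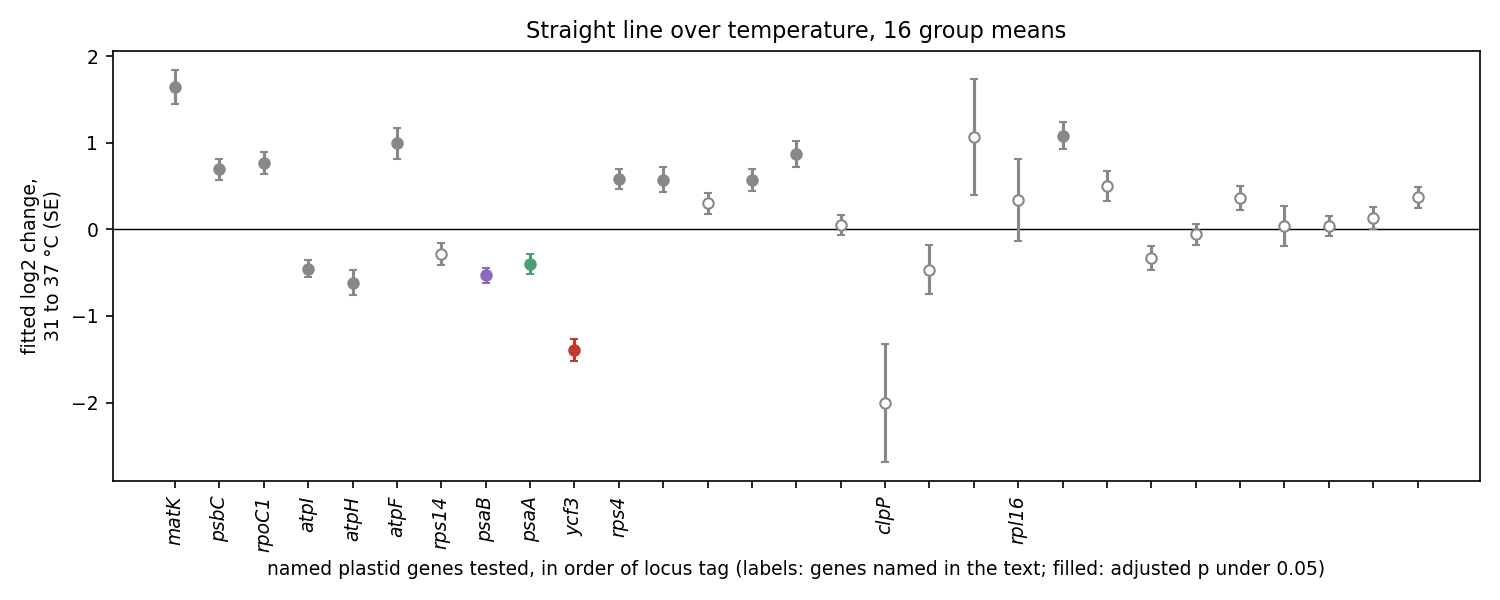
Fitted log2 change from 31 to 37 °C (points, with SE) of the 29 named plastid genes tested, in a straight line over the 16 group means, in order of locus tag, with labels on genes named in the text; filled points passed an adjusted p of 0.05 in limma. ycf3 (-1.39), psaB (-0.53), psaA (-0.40), atpI and atpH are the 5 called lower (7.20% of all genes). matK (1.64) is the highest of the 9 called higher (8.60% of all genes).

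Likeness was measured as Pearson's r of log2(FPKM + 1) over the 16 group means, which share libraries, depth and the summed plastid level, and is given as a description. Among named plastid genes psaB was most like atpH (r = 0.91) and atpI (r = 0.87) and was at r = 0.79 with psaA. In the same set psaA was most like atpI (r = 0.81), then psaB. rps14 was at r = 0.74 with psaA and 0.75 with psaB. ycf3 was less like its neighbours, at r = 0.39 with psaA and 0.29 with psaB, and its closest named plastid gene was clpP (r = 0.65), listed at 0 in 26 libraries. Among 16214 genes with a highest group mean of at least 5 FPKM, 27 had r over 0.9 with ycf3, led by the nuclear genes Zm00001d046531 (r = 0.95) and Zm00001d048711 (r = 0.94). Zm00001d046531 went from 53.3 ± 1.65 FPKM at 31 °C to 20.5 ± 0.683 FPKM at 37 °C in W22 V5 and from 59.4 ± 0.578 to 22.8 ± 0.650 FPKM in bzip60-2 V5 (SD, n = 3). Zm00001d048711 went from 36.4 ± 1.69 to 12.4 ± 1.81 FPKM and from 46.01 ± 3.42 to 12.2 ± 3.04 FPKM in those series. For psaB 16 genes had r over 0.9, led by the nuclear genes Zm00001d036877 and Zm00001d004478 (both r = 0.95). No gene reached r = 0.9 with psaA, whose closest were the nuclear genes Zm00001d029443 (r = 0.88) and Zm00001d010632 (r = 0.86).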

How the data were processed

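Poly(A) RNA from 48 leaf samples was isolated with oligo(dT) beads and sequenced by BGI, per the labels' protocols, which do not say that strand was kept. The authors deposited 1 table of FPKM with a column for each library, per the file headers. The submitters' processing notes name RSEM 1.2.12, Bowtie2 2.2.5, HISAT2 2.0.4, DESeq2 1.4.5 and HISAT, with no step for each. The genome build is not given in the sources used here, and how reads shared with nuclear copies of plastid DNA were divided is not known. Counts were not used, so the depth is unknown, and relative depth read from low values ran from 0.806 to 1.07.

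Computed here were log2(FPKM + 1), a filter of at least 1 FPKM in at least 3 libraries (22794 of 33309 genes), and linear models of 16 group means in limma 3.58.1 (R 4.3.3; moderated variances that follow mean level), two-sided, adjusted by Benjamini-Hochberg over all genes. A log2 change on this scale understates the change of low genes. Ratios were taken within libraries without a pseudocount and tested by exact permutation in Python 3.11.15. The models were tested on simulated data. Alternatives covered pseudocount, filter, size factors, plastid-relative scaling, array weights, a replicate block, a term for library sets, smaller models and left-out libraries, groups and series. The members, gene lists, library sets and rules were chosen with earlier results of these data known. Named genes are the members, their neighbours and photosystem I genes, up to 2 other named plastid genes with the largest called rise and fall per comparison of 37 with 31 °C, and the genes most like each member, of which some are not reported here. rps4, psbC and rpoC1 beyond that stand for their lists, and atpH and atpI were named as the only other falls of the straight line. Nuclear identifiers had no symbols in the table used, so bZIP60 was not analysed here.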

Additional observations from a re-analysis of the deposited data

How the results depend on the processing

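The falls of ycf3 and psaB from 31 to 37 °C passed the threshold in all 4 series and in the straight line under every alternative run, and so did the falls of ycf3/psaA and ycf3/psaB over temperature. The psaA results and the genotype and stage differences depended on the scaling, and the cause was not tested. Replicate numbers did not pair the libraries: over 36 pairs of groups the deviations of same-numbered libraries correlated at r from -0.049 to 0.051, with none over 0.1. A replicate block moved the count of genes called at 37 against 31 °C in W22 V4 from 10560 to 10533 and changed no call of a member. The FPKM table carries no read depth, which limits what can be said of low values.

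With size factors the sign changed for psaB at 33 against 31 °C in bzip60-2 V4 (0.073) and W22 V4 (0.019) and in its genotype difference in the change to 37 °C at V5 (0.021), for ycf3 at 33 °C in bzip60-2 V4 (0.097), and for the psaA genotype difference at V4 with 33 °C (-0.064) and 35 °C (-0.053). psaA came to pass the threshold at 37 °C in bzip60-2 V4 (-0.35), between genotypes at V4 (-0.26), at V5 (-0.36) and over 8 pairs (-0.31), between stages in W22 (-0.36) and bzip60-2 (-0.45), and in the F test of bzip60-2 V4 (F = 7.64). psaB did so between genotypes at V5 (-0.33).

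Set against the other plastid genes, psaA changed sign in bzip60-2 V4 at 33 °C (-0.28) and 35 °C (-0.43). It also did so between genotypes at V4 (0.019, and 0.018 at 31 °C), at V5 (0.13, with 0.25, 0.15 and 0.34 at 31, 33 and 35 °C) and over 8 pairs (0.075), between stages in W22 (0.23) and bzip60-2 (0.34), and in the genotype difference in the change to 37 °C at V4 (-0.10). psaB changed sign at 33 °C in W22 V5 (0.037), between genotypes at V4 and 31 °C (0.083) and at V5 (0.16, with 0.23, 0.082 and 0.36 at 31, 33 and 35 °C), and between stages in bzip60-2 (0.29). ycf3 did so at 33 °C in bzip60-2 V5 (0.055) and W22 V5 (0.24) and in the genotype difference in the change to 37 °C at V4 (-0.081). psaA came to pass the threshold at 37 °C in bzip60-2 V4 (-0.85), in the F test of that series (F = 30.1) and, like ycf3 (-0.33), in the genotype difference in the change to 37 °C at V5 (-0.47). psaB no longer passed it between stages in W22 (-0.047) or over the 8 genotype pairs (-0.0092). Under this scaling 5 or 6 of the 26 other named plastid genes were called higher at 37 °C per series, against 10 to 13 as deposited, and 7 to 11 lower, against 1 to 6.

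Only W22 V4 at 37 °C held libraries of both sets, so the term for library sets rests on its replicate 3. The values and counts that follow move with that library and are not read as a correction for the sets. With the term, psaA changed sign in bzip60-2 V4 at 33 °C (-0.59) and 35 °C (-0.58), between genotypes at V4 with 33 °C (-0.53) and 35 °C (-0.56), and in the genotype difference in the change to 37 °C at V4 (-0.32). ycf3 changed sign between genotypes at V4 and 35 °C (-0.17) and in that change (-0.15). psaA came to pass the threshold at 37 °C in bzip60-2 V4 (-0.92), between genotypes at V4 (-0.48) and V5 (-0.13), between stages in W22 (-0.65) and bzip60-2 (-0.30), and in the F test of bzip60-2 V4 (F = 9.78). ycf3 no longer passed it between genotypes at V4 (0.21) or stages in W22 (0.16). Over all genes this term moved the count called at 37 °C in bzip60-2 V4 from 12590 to 7019 and the V4 genotype count from 16096 to 9421.

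Among changes at 37 °C, averaged differences and F tests, the other settings moved psaA results only, while single steps at 33 and 35 °C and single genotype pairs of all 3 members near the threshold also gained or lost calls. Array weights gave 0.0074 between genotypes at V4, where the sign changed, and calls between genotypes at V5 (-0.12), between stages in bzip60-2 (-0.14) and in the F test of bzip60-2 V4 (F = 4.05). With only the compared groups in the fit, psaA was called between genotypes at V5 (-0.13), between stages in bzip60-2 (-0.13) and in the F test of bzip60-2 V4 (F = 7.02), and not at 37 °C in W22 V4 (-0.38) or in its F test (F = 1.85). The W22 V4 F test was not called without a filter (F = 3.27), and that of bzip60-2 V4 was called with a filter at 5 FPKM (F = 3.13).

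With 1 library, group or pair left out, psaA ranged from -0.60 to -0.18 at 37 °C in W22 V4, from -0.52 to -0.29 in W22 V5 and from -0.47 to -0.31 in the straight line. Its F values ranged from 1.92 to 9.13 in W22 V4 and from 1.55 to 3.47 in bzip60-2 V4. Its stage differences ranged from -0.15 to -0.11 in bzip60-2 and from -0.076 to 0.031 in W22. Its genotype differences ranged from -0.074 to 0.033 at V4, from -0.15 to -0.095 at V5, from -0.31 to 0.11 at V4 and 37 °C, from -0.076 to 0.020 at V5 and 31 °C and from -0.080 to 0.10 at V5 and 33 °C, and that in the change to 37 °C at V4 from -0.068 to 0.36. psaB ranged from -0.13 to -0.069 between genotypes at V5, from -0.14 to 0.047 at V5 and 31 °C, from -0.15 to 0.038 at V5 and 33 °C and from -0.18 to -0.15 over the pairs. ycf3 ranged from -0.084 to 0.00025 at 33 °C in bzip60-2 V4 and from 0.090 to 0.35 in the genotype difference in the change to 37 °C at V4. Without 1 series only 4 genotype pairs remain and the exact test cannot go below 0.125, so the ratio calls end by construction. The log2 difference then was 0.54 or 0.57 for ycf3/psaA. The log2 differences then and without single libraries ranged from 0.53 to 0.58 for ycf3/psaA, from 0.51 to 0.79 for ycf3/psaB and from -0.21 to 0.031 for psaB/psaA.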
